A study of Mus musculus with 19 samples.

Results

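The genes described here encode 3 transcription factors of the Gata family, *Gata4*, *Gata5* and *Gata6*, and the 2 Friend of Gata (Fog) cofactors, *Zfpm1* and *Zfpm2*. They were chosen by name, and 5-hydroxymethylcytosine (5-hmC) peaks were collected over each gene span (in GRCm38, the assembly of mm10) plus 20 kb on each side, a stretch called the window below. These 5 genes, of 21000 protein-coding genes, held 658 of the 1000847 peaks in the 8 lists. DNA of cardiomyocytes (CMCs) from C57BL/6J mice was precipitated with an antibody to 5-hmC and sequenced, with 2 biological replicates at each of 4 experimental points: embryos at E14.5, neonates aged 1 to 2 days, adults aged 2 months, and adults examined 1 week after TAC (transverse aortic constriction), an operation that narrows the aorta and loads the left ventricle with pressure. E14.5 and neonatal CMCs came from digested ventricles after preplating, whereas adult and TAC CMCs came from the perfused left ventricle. Age, isolation method and the chamber sampled therefore cannot be told apart. The adult mice served as the comparison for TAC. Both the adult and the TAC mice were male, and no sham-operated group was used here.

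5-hmC is made from 5-methylcytosine by Tet enzymes, mostly at CpG dinucleotides, and is found over gene bodies (GBs) and enhancers more than over active CpG-rich promoters. Gata4 and Gata6 bind the letters GATA through a pair of zinc fingers and drive the cardiac gene programme together with Nkx2-5, Tbx5 and Mef2c, while Gata5 acts mainly in endocardium and early heart. Fog proteins do not bind these sites themselves. They attach to the N-terminal zinc finger of a Gata factor and bring in corepressors such as the NuRD complex; Zfpm2 (Fog2) is the partner known from heart and coronary vessel development, and Zfpm1 (Fog1) the one known from blood.

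Sequences of the places shared by the most lists are shown because they are where the mark recurred, and they differ strongly in the CpG dinucleotides that can carry it. Each line gives the middle 200 bp of the stretch covered in the most lists (7 for *Gata4* and *Gata5*, 8 for *Zfpm1*, 6 for *Zfpm2*), on the strand of the gene, with CpG in capitals.
Gata4, intron 3 and exon 4, chr14:63203676-63203875: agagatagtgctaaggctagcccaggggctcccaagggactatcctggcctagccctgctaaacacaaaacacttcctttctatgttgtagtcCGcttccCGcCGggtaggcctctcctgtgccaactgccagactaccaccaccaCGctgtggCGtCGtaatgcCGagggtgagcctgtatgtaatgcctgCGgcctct
Gata5, upstream flank, chr2:180346441-180346640: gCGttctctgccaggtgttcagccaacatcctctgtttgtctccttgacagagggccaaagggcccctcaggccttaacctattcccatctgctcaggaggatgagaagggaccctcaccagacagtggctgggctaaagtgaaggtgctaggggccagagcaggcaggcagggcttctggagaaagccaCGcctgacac
Zfpm1, exon 10, chr8:122335957-122336156: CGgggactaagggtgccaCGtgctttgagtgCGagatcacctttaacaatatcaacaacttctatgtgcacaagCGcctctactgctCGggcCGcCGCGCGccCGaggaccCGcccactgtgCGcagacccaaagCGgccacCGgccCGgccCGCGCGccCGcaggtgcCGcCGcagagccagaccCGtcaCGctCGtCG
Zfpm2, intron 3, chr15:40835965-40836164: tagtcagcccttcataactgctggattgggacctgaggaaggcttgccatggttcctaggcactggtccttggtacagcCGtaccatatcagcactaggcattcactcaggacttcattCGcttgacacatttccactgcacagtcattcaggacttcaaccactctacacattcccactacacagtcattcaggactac
In the *Gata4* line, bases 92 to 200 are exon 4, which codes for part of a zinc finger. The whole *Zfpm1* line is coding sequence of the last exon and holds 25 CpG, against 8 in the *Gata4* line and 2 in each of the *Gata5* and *Zfpm2* lines. Over the whole shared stretches, CpG density was 10.5 per 100 bp at *Zfpm1*, 4.04 at *Gata6*, 2.26 at *Gata4*, 1.84 at *Gata5* and 0.606 at *Zfpm2*, beside 2.03, 1.31, 1.47, 1.29 and 0.635 over the windows of the same genes.

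The 250 bases before 2 of the starts (RefSeq, GRCm38.p6) are shown for contrast, since one lies beside peaks and the other does not.
Gata5, chr2:180334680-180334929: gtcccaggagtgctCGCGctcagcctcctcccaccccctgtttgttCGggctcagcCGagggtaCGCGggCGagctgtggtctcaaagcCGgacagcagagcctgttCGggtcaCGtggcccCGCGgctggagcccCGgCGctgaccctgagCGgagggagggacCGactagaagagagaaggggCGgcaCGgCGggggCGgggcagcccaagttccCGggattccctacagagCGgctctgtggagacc
Zfpm1, chr8:122281891-122282140: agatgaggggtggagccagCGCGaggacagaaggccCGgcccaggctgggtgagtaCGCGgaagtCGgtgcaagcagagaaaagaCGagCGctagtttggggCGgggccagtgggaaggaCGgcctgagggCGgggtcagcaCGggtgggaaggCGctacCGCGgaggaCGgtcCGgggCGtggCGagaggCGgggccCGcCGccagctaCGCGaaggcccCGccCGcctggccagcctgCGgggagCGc
They held 22 and 28 CpG. No list had a peak base on the *Gata5* stretch, whereas a peak came within 250 bp of the *Zfpm1* start in 6 of 8 lists, as described with each gene. Both stretches were dense in CpG, and they differed in coverage.

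The 8 lists held from 104215 to 153637 peaks and covered from 65.1 to 119 Mb of the genome, with TAC replicate 2 the lowest and neonatal replicate 2 the highest in covered length. The number of reads is not in the list columns used here, so the depth behind a peak is not given. A list can be shorter because fewer sites carry 5-hmC or because fewer reads were sequenced, and in bulk DNA a change per cell and a change in the share of a cell type cannot be told apart. The median window of the 19820 genes tested was covered from 3.15% in TAC replicate 2 to 5.04% in neonatal replicate 2.

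**Figure D1:**
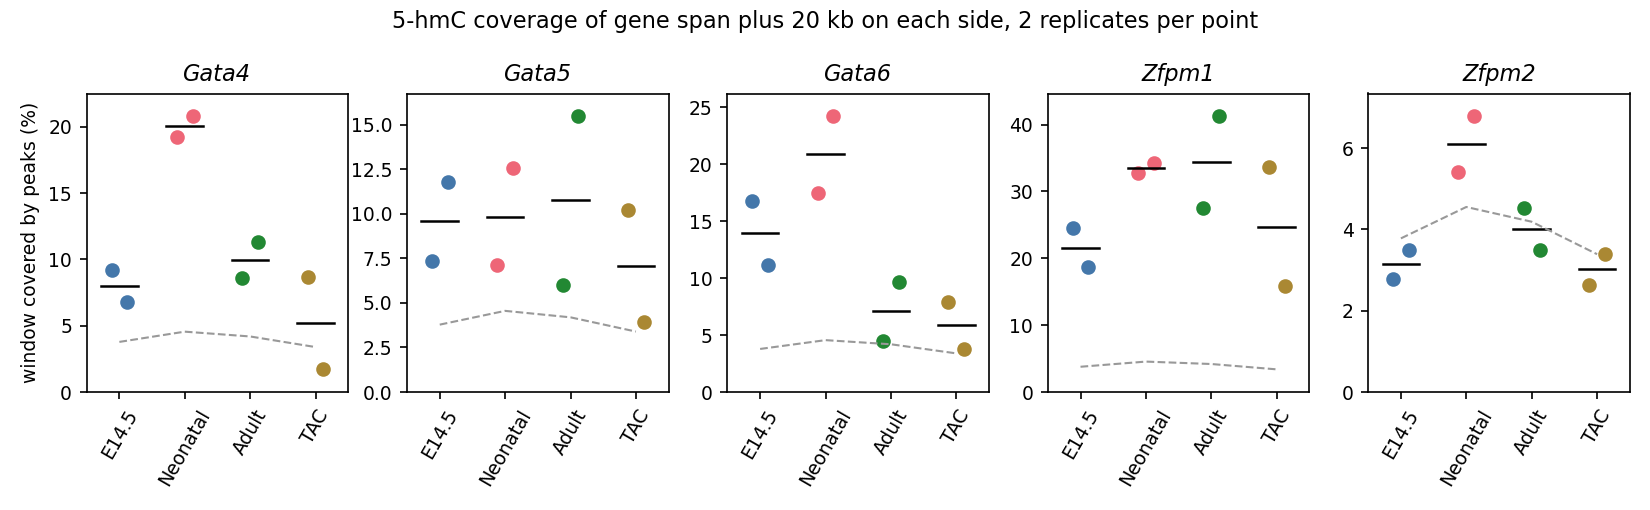
Percent of each window covered by peaks (y axis, scale differs between genes) at the 4 points (x axis). Points are the 2 replicates, black bars their mean and the dashed line the median of all genes tested, averaged over the replicates. Both neonatal replicates lie above the other 6 lists at *Gata4*, *Gata6* and *Zfpm2*, from 19.2 to 20.8%, from 17.5 to 24.3% and from 5.41 to 6.80%.

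*Gata4*, a regulator of CMC differentiation and of the hypertrophic response, lies on chromosome 14 (63198914 to 63245271, minus strand, 7 exons). Its window was covered at 9.21 and 6.78% at E14.5, at 19.2 and 20.8% in neonatal CMCs, at 8.60 and 11.4% in adult CMCs, and at 8.69 and 1.74% after TAC (group means 8.0 ± 1.72, 20.03 ± 1.15, 9.97 ± 1.95 and 5.22 ± 4.92%, SD, n = 2). The neonatal replicates stood above the other 6 lists, and the other 3 points overlapped. On the log2(percent + 1) scale, which understates changes of low values, the differences were 1.24 (SE 0.56) from E14.5 to neonatal, -0.95 from neonatal to adult and -1.08 from adult to TAC. The last of these was -1.99 without TAC replicate 1 and -0.17 without TAC replicate 2, which held 3 peaks in the window against 9 to 16 in the other lists. The difference over the 4 points had a p of 0.0458 and an adjusted p of 0.349 (limma moderated F test over all genes tested, Benjamini-Hochberg).

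*Gata4* peaks lay in the GB and in both flanks. Of 87 peaks in the 8 lists, 50 had their centre in an intron, 2 in an exon, 20 in the upstream and 15 in the downstream flank, and none within 1 kb of the start. Exon 2, which holds 46.1% of the coding bases, was covered in no list. Intron 2, the longest at 35.8 kb, was covered at 15.5 and 6.12% at E14.5, at 28.5 and 27.0% in neonatal CMCs, at 7.0 and 8.76% in adult CMCs and at 2.91 and 1.40% after TAC. At this intron the neonatal values were again the highest, and both TAC values were the lowest. Exon 4 was covered over its whole length in 7 of 8 lists, all but TAC replicate 2, within the recurring region chr14:63203496-63204220, 41.4 kb from the start. Of the 8762 bp that both neonatal lists covered, 1888 bp (21.5%) were in none of the other 6 lists. The gene *Neil2* and the start of *Fdft1* lie in the downstream flank, so that peaks there may belong to either.

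*Gata6*, which overlaps with Gata4 in function in the heart, lies on chromosome 18 (11052510 to 11085635, plus strand, 7 exons). Its window was covered at 16.8 and 11.2% at E14.5, 17.5 and 24.3% in neonatal CMCs, 4.48 and 9.67% in adult CMCs, and 7.91 and 3.77% after TAC (means 14.0 ± 3.96, 20.9 ± 4.79, 7.08 ± 3.67 and 5.84 ± 2.92%, SD, n = 2). All 4 E14.5 and neonatal lists were above all 4 adult and TAC lists. The log2 differences were 0.56 (SE 0.47), -1.50 (SE 0.47) and -0.23 (SE 0.47) for the 3 transitions. For the neonatal to adult transition, the p was 0.0148 and the adjusted p 0.343 (limma, over all genes tested), with a 95% interval of -2.61 to -0.39. The difference over the 4 points had an adjusted p of 0.320 in the same fit.

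At *Gata6* the contrast between the early and the adult lists was widest over the gene itself. The GB was covered at 25.3, 16.2, 25.7 and 40.2% in the E14.5 and neonatal lists and at 3.02, 10.3, 9.995 and 1.51% in the adult and TAC lists. Intron 6, the longest at 19.5 kb, was covered at 32.0, 22.7, 35.6 and 53.9% in the former and at 5.13, 17.4, 13.7 and 2.57% in the latter. Coding bases lay under a peak in all 4 E14.5 and neonatal lists (27.5, 7.12, 20.3 and 27.5% of them) and in none of the 4 adult and TAC lists. That pattern, singled out after the values were seen, held for 99 of 19820 genes (0.499%). It does not require a shared place, and no exon was covered in all 4 early lists. E14.5 replicate 2 covered coding bases of exon 4 alone, and neonatal replicate 1 covered exons 5 to 7 but not exon 4. The coding bases covered lay in exons 4 to 7 (TAC replicate 1 covered part of exon 7, outside its coding bases), and exon 2, with 63.1% of the coding bases, was covered in no list. The 20 kb before the gene were covered at 7.51, 2.5, 5.88 and 0% in the E14.5 and neonatal lists and at 6.37, 4.22, 2.5 and 4.76% in the adult and TAC lists, which overlapped. A downstream place 35.9 kb from the start (chr18:11088150-11088650) was covered in 7 of 8 lists, and the 20 kb after the gene at 11.9, 11.5, 15.4, 22.0, 5.01, 14.1, 9.85 and 6.52% in the order of the points.

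No list had a peak between 3386 bp before and 9617 bp after the *Gata6* start, an empty stretch of 13.0 kb. The antisense gene *Gata6os* also begins in this stretch. An empty stretch as long or longer around the start was found at 23.0% of genes tested. At *Gata4* the empty stretch was 2.34 kb in the 8 lists together, and 64.7% of genes had one as long or longer. Its edge after the start was a single peak of adult replicate 1 at 864 bp, and the first peak of the other lists after the start began 8440 bp or more into the gene. The sequence within 1 kb of the start held 5.15 CpG per 100 bp at *Gata4* and 4.95 at *Gata6*, above 74.2 and 71.5% of genes.

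**Figure D2:**
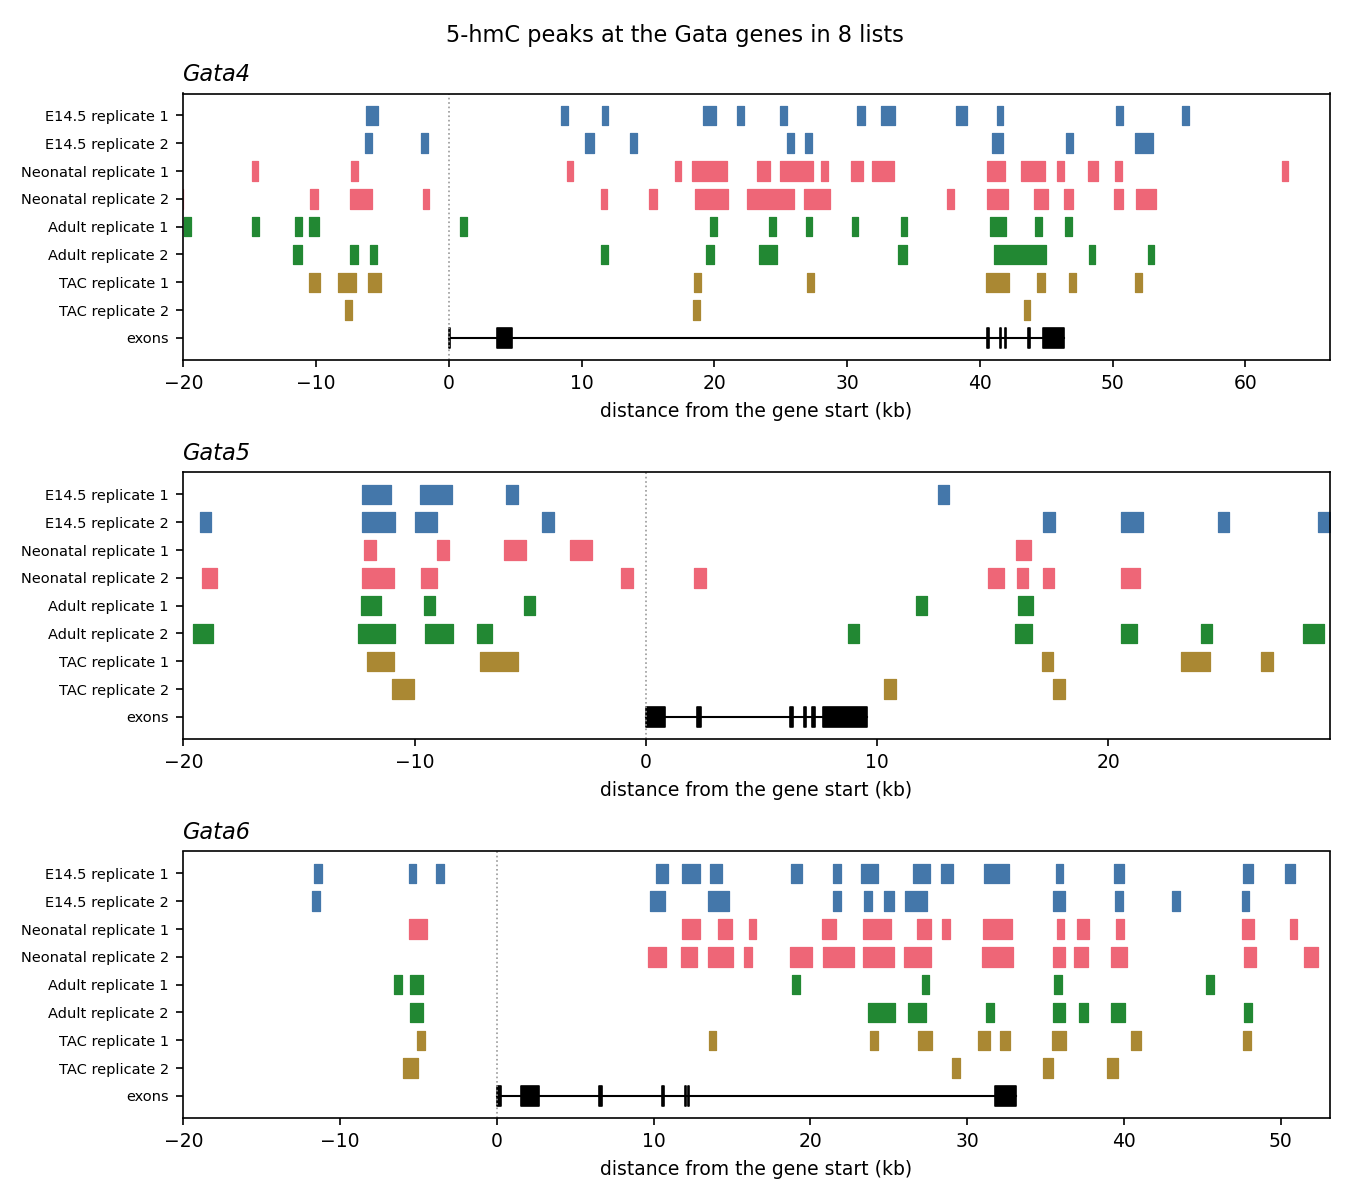
Peaks of the 8 lists (rows, coloured by point) along the windows of *Gata4*, *Gata5* and *Gata6*, by distance from the gene start in kb (x axis), with the exons in black. The start of *Gata6* is bare, the longest introns of *Gata4* and *Gata6* are filled mostly in the neonatal lists (for *Gata6* also at E14.5), and the *Gata5* peaks lie in the flanks.

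*Gata5* (chromosome 2, 180325088 to 180334679, minus strand, 6 exons) differed in where its peaks lay. Its window was covered at 7.38 and 11.8% at E14.5, 7.11 and 12.6% in neonates, 6.01 and 15.5% in adult CMCs, and 10.2 and 3.93% after TAC. The replicates of each point lay farther apart than the means of the points, which ran from 7.06 to 10.8%, and the 4 points did not differ beyond that spread (limma F test, adjusted p = 0.846). The log2 differences were 0.02, 0.04 and -0.53, with 95% intervals of -1.33 to 1.37, -1.32 to 1.39 and -1.89 to 0.82. Of its 48 peaks, 24 lay in the upstream and 21 in the downstream flank. The gene spans only 9.59 kb of a 49.6 kb window, so most peaks would lie in the flanks by size alone. The GB was covered in 2 lists, at 5.22% in each of neonatal replicate 2 and adult replicate 2. Over the 8 lists the upstream flank was covered at 4.73 to 21.5% and the downstream flank at 2.5 to 14.4%. The only peak within 1 kb of the start was in neonatal replicate 2, with its near edge 558 bp before the start. The place seen most often lay 11.8 kb before the start (chr2:180346140-180346851) in 7 of 8 lists. In TAC replicate 2 the nearest upstream peak ended 10033 bp before the start. Coding bases were covered in 1 list, neonatal replicate 2, over 14.49% of their length. The antisense gene *Gata5os* overlaps the start of *Gata5*, and these peaks have no strand that would assign them to one of the pair.

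*Zfpm1* (chromosome 8, 122282141 to 122337862, plus strand, 10 exons) was the most densely covered of the 5 genes in each of the 8 lists. Its window was covered at 24.5 and 18.8% at E14.5, 32.8 and 34.3% in neonates, 27.5 and 41.3% in adult CMCs, and 33.6 and 15.9% after TAC, which put it above 98.8 to 99.9% of genes tested in each list. The means were 21.6 ± 4.05, 33.6 ± 1.04, 34.4 ± 9.79 and 24.7 ± 12.6% (SD, n = 2), and the replicates of neonatal and E14.5 CMCs did not overlap. The log2 differences of 0.62, 0.01 and -0.52 each had an SE of 0.44, and the 4 points did not differ beyond the spread of replicates (limma F test, adjusted p = 0.625). The last difference was -1.04 without TAC replicate 1 and -0.01 without TAC replicate 2.

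The last exon of *Zfpm1* was the one place among the 5 genes covered in all 8 lists. Exon 10 holds 58.9% of the coding bases, several zinc fingers among them, and it was covered at 52.4 and 83.0% at E14.5, 80.3 and 76.8% in neonates, 95.02 and 78.7% in adult CMCs, and 72.3 and 65.7% after TAC. A stretch of 940 bp inside it was shared by the 8 lists, and all of it was coding. In all, 12.3% of the *Zfpm1* window was covered in 6 or more lists, against 2.16% at *Gata6*, 1.44% at *Gata5*, 0.840% at *Gata4* and 0.228% at *Zfpm2*. A region of 648 bp just before the start (chr8:122281265-122281912) was covered in 7 of 8 lists. The exception was neonatal replicate 2, whose nearest upstream peak ended 4356 bp before the start, while the peaks of the other lists ended from 18 to 450 bp before it. No list covered exon 1, and the first peak after the start began from 1752 to 6090 bp into the gene. The upstream flank holds the end of *Zfp469* and the downstream flank the end of *Trhr2*.

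*Zfpm2* (chromosome 15, 40655042 to 41104592, plus strand, 8 exons), the largest of the 5 at 450 kb, was thinly covered. Its window was covered at 2.79 and 3.5% at E14.5, 5.41 and 6.80% in neonates, 4.53 and 3.5% in adult CMCs, and 2.64 and 3.4% after TAC, which put it between 39.9 and 61.2% of genes tested. It held 45 and 57 peaks in the neonatal lists against 21 to 32 in the other 6. The log2 differences were 0.78 (SE 0.34), -0.50 and -0.32, and the adjusted p over the 4 points was 0.443 (limma F test). Both neonatal lists were above the other 6, and both TAC lists were just below both adult lists. Of 265 peaks, 254 had their centre in an intron, but the gene fills 450 kb of a 490 kb window and is nearly all intron. Its last exon, which like that of *Zfpm1* holds most of the coding bases (72.1%), was covered in 2 of 8 lists, at 29.1% in neonatal replicate 1 and 16.5% in adult replicate 1.

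No list had a peak in the 20 kb before the *Zfpm2* start, a state shared by 5.75% of genes tested. After the start, a peak began at 53 bp in E14.5 replicate 2 and at 397 bp in TAC replicate 2. These covered 90.2 and 26.8% of exon 1. The first peak of the other lists began 10717 bp or more into the gene. The places found most often lay in intron 3, 181 kb from the start (chr15:40835818-40836312), and in intron 5, 323 kb (chr15:40978151-40978632) and 420 kb (chr15:41075269-41075405) from it. Each was covered in 6 of 8 lists. Both neonatal lists had 20 regions in common in this window, covering 10159 bp, and 14.0% of these bases were in no other list. The common regions were 3 at E14.5, 9 in adult CMCs and 4 after TAC.

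**Figure D3:**
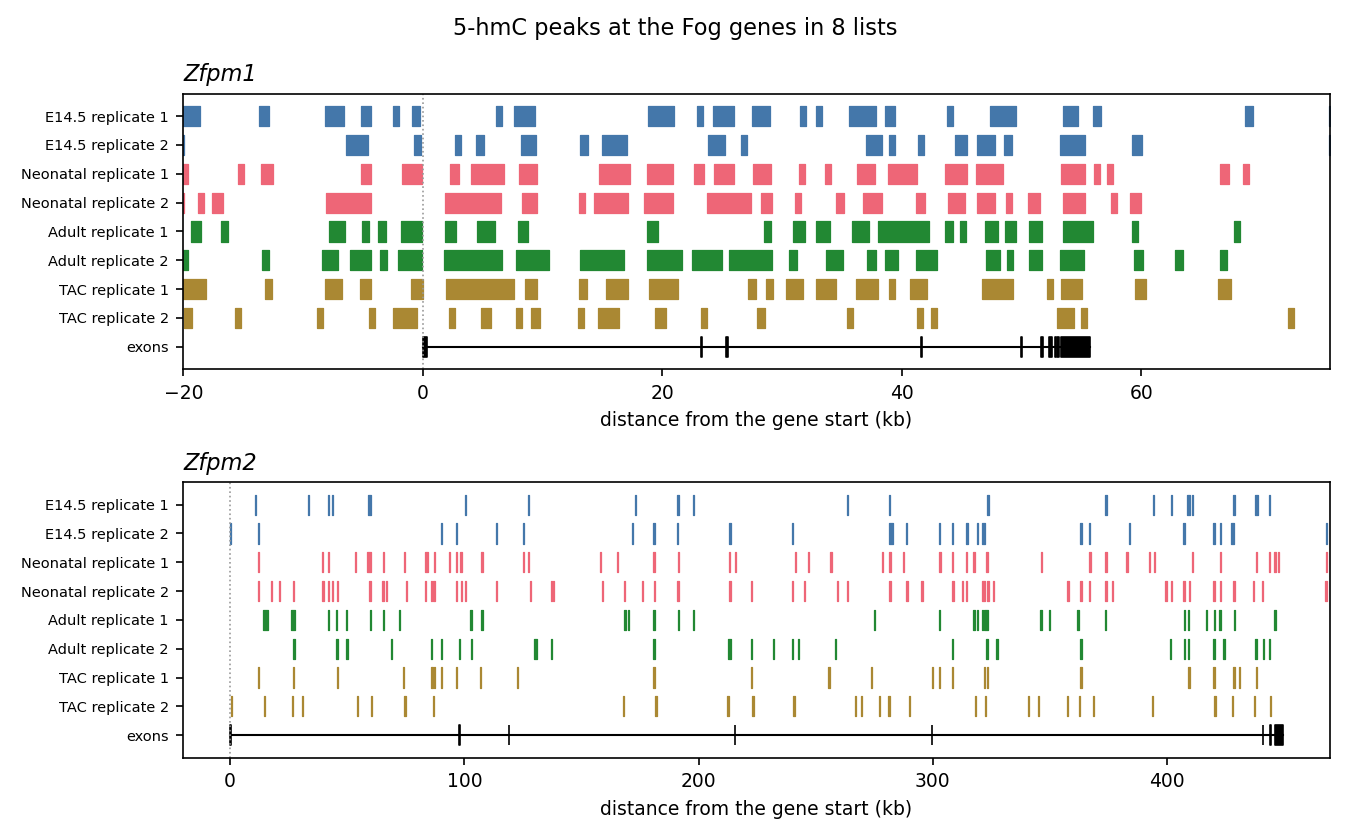
Peaks of the 8 lists (rows, coloured by point) along the windows of *Zfpm1* and *Zfpm2*, by distance from the gene start in kb (x axis, scales differ), with the exons in black. *Zfpm1* carries 176 peaks, and its last exon is covered in each list. *Zfpm2* carries 265 peaks, 254 of them centred in introns, and none in the 20 kb before its start.

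Which of these patterns were common among all genes was read from the same table. The limma test called 0 genes (0%) for the difference over the 4 points and for each of the 3 transitions, and 0 of the 5 genes, with 2816 genes at an unadjusted p under 0.05 for the 4 points, and 1338, 2285 and 1559 for the transitions. Both neonatal replicates stood above the other 6 lists at 3 of the 5 genes (*Gata4*, *Gata6* and *Zfpm2*) and at 7.02% of all genes tested. The neonatal lists were above both E14.5 lists at *Gata4*, *Gata6*, *Zfpm1* and *Zfpm2*, against 29% of all genes, and below them at none of the 5, against 7.05%. They no longer stood above E14.5 at *Gata6* after scaling to the mean, by peak centres, or with peaks widened by 500 bp. The same held at *Zfpm1* by peak centres. With equal numbers of peaks, both neonatal lists were below both E14.5 lists at *Gata5*. The adult lists were below both neonatal lists at *Gata4*, *Gata6* and *Zfpm2*, against 26.1% of genes, and above them at none, against 14.6%. With equal numbers of peaks, the adult lists no longer lay below at *Zfpm2* and lay above both neonatal lists at *Gata5*. Both TAC lists were below both adult lists at *Zfpm2*, against 25.5% of genes, and above them at none, against 7.26%. *Zfpm2* lost the order of TAC below adult under 4 of the 6 other ways of measuring coverage (scaling to the mean, equal numbers of peaks, peak centres per 100 kb, and peaks widened by 500 bp). *Gata4* gained it with peak centres, with gene spans without flanks and with widened peaks, and *Zfpm1* with peak centres. All 4 early lists were above the 4 adult and TAC lists at *Gata6*, against 8.62% of genes (*Gata6* lost this order with 50 kb on each side), and the opposite order, found at 1.62% of genes, was seen at none of the 5.

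The neonatal lists also covered the most bases of the genome (97.5 and 119 Mb), with a median log2 difference over all genes of 0.20 from E14.5 to neonatal, -0.16 from neonatal to adult and -0.24 from adult to TAC. When each list was scaled to its mean coverage over all gene windows, both neonatal lists stood above the other 6 at *Gata4* and *Zfpm2*, but not at *Gata6*, against 3.17% of genes. With the same number of peaks drawn from each list, *Gata4* and *Gata6* kept this order and *Zfpm2* lost it, against 2.90% of genes. *Gata6* also lost it with peak centres per 100 kb and with peaks widened by 500 bp. *Gata4* kept it under the 7 ways of measuring coverage that were tried. Without TAC replicate 2 the same 3 genes stood above the other 5 lists, as did 7.61% of genes. The difference from neonatal to adult was negative at *Gata4*, *Gata6* and *Zfpm2* under each scaling, whereas the difference of *Gata6* from adult to TAC was 0.17 after scaling to the mean, in place of -0.23.

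**Figure D4:**
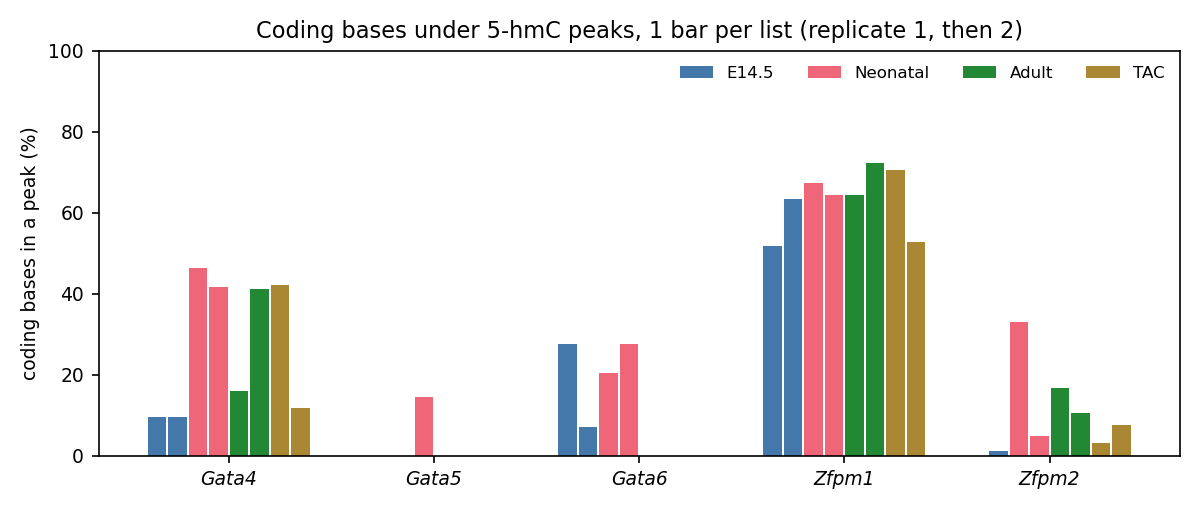
Percent of the coding bases of each gene that lie under a peak (y axis), with 1 bar per list, coloured by point. *Zfpm1* stands between 51.7 and 72.4% in the 8 lists, *Gata4* between 9.48 and 46.4%, *Gata6* is above 0 in the E14.5 and neonatal lists alone, and *Gata5* in 1 list.

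Replicates shared only part of their peaks at these windows, which sets how finely places can be compared. Of 148 peaks at E14.5, 35.8% were overlapped by at least 1 bp in the other replicate. The share was 51.6% of 221 peaks in neonatal CMCs, 48.4% of 159 in adult CMCs and 32.3% of 130 after TAC. Overlap was counted from each replicate in turn, so a shared place enters from both lists. These peaks are not independent replicates of a point, and no interval is given. TAC replicate 2 missed 1 or more of the recurring places at each of the 5 genes. The share of peaks with their centre in an intron was 64.2, 71.9, 65.4 and 68.5% in the order of the points. It is pooled over the 5 genes and depends on the number of *Zfpm2* peaks, of which 254 of 265 were intronic. *Zfpm2* held 45 and 57 peaks in the neonatal lists against 21 to 32 in the others.

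**Figure D5:**
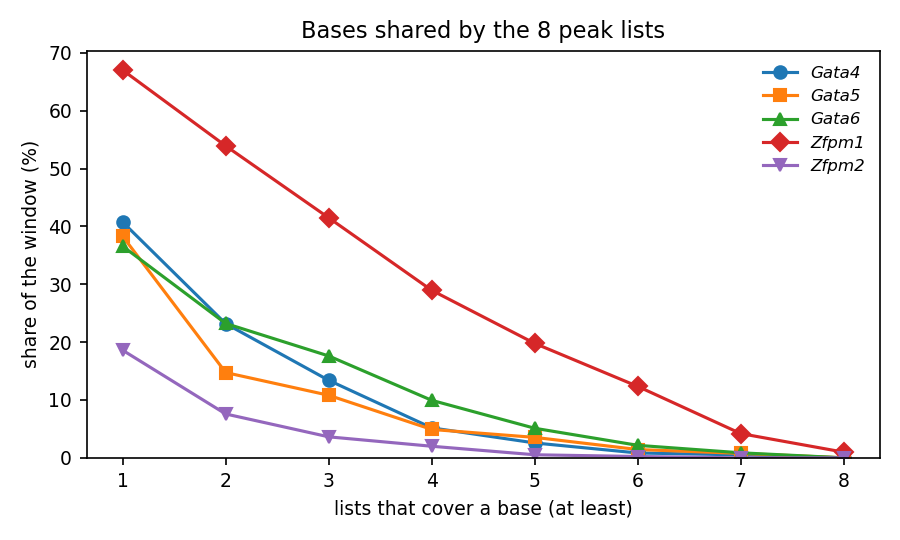
Share of each window (y axis, %) covered in at least the number of lists on the x axis. From 1 to 8 lists the share went from 67.0 to 0.982% at *Zfpm1* and from 18.6 to 0% at *Zfpm2*; *Gata4*, *Gata5* and *Gata6* started between 36.6 and 40.7% and had no base in all 8.

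The median CpG density in the 250 bp on each side of peak centres was 2.0 per 100 bp at *Zfpm1*, 1.40 at *Gata4* and *Gata6*, 1.2 at *Gata5* and 0.998 at *Zfpm2*, beside 1.2 for all peaks of the 8 lists. The letters AGATAA or TGATAA, 2 forms of the site that Gata factors bind, were searched on both strands of the same stretches. They were present in 29.9% of peaks at *Gata4*, 45.8% at *Gata5*, 40.2% at *Gata6*, 33.0% at *Zfpm1* and 49.8% at *Zfpm2*, and in 37.1% of all peaks. These shares were not adjusted for base content. Median GC of the same stretches was 47.5% at *Gata4*, 52.9% at *Gata5*, 47.2% at *Gata6*, 56.6% at *Zfpm1*, 41.7% at *Zfpm2* and 47.5% over all peaks.

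The genes whose coverage followed each member most closely over the 8 lists were named by Pearson's r, as a description over 8 samples that share their libraries and list lengths. For *Gata4* they were *Lrrfip1* (r = 0.990), *Ppargc1b* (0.989) and *Sorbs2* (0.989). *Gata6* was followed by *Nr1h4* (0.989), *Cox17* (0.980) and *Popdc2* (0.980). *Gata5* was followed by *Fxyd3* (0.971), *Mmp21* (0.967) and *Kif6* (0.966), *Zfpm1* by *Atox1* (0.992), *Ralgps1* (0.983) and *Zfp319* (0.981), and *Zfpm2* by *Vps13b* (0.985), *Gpr1* (0.970) and *Rimklb* (0.961). Among the 5 genes themselves, r was highest for *Gata4* with *Gata6* (0.839) and with *Zfpm2* (0.801), and lowest for *Gata5* with *Zfpm2* (0.112).

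No gene of the surrounding pathway passed the limma test over the 4 points, as no gene (0%) of the 19820 tested did. The 0 calls in each list below are therefore not particular to its genes. Of the 14 cardiac partners of Gata factors, 0 were called and 5 had both neonatal lists above the other 6, against 7.02% of all genes. Their median coverage was 5.18% at E14.5, 9.71% in neonates, 6.88% in adult CMCs and 4.5% after TAC, beside 3.86, 4.62, 4.32 and 3.48% for all genes tested. The most covered were *Tead1*, a Hippo pathway factor, with 18.6 and 11.6% at E14.5, 20.2 and 22.4% in neonates, 22.7 and 22.3% in adult CMCs and 20.7 and 11.6% after TAC, and *Tbx5*, a T-box factor of the heart, with 13.5 and 19.6, 15.5 and 25.4, 14.4 and 22.1, and 13.4 and 15.1%.

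Among the NuRD subunits and other Fog partners, 13 of 14 were tested (*Rbbp7* had a peak in fewer than 2 lists). Of these, 0 were called (0% of all genes) and 0 had the neonatal pattern (7.02% of all genes). Their medians were 6.80, 8.89, 10.4 and 8.70%. The most covered were *Mta1*, a NuRD subunit, with a mean of 21.3% over the 8 lists, and *Ctbp2*, a corepressor, with 19.9%. Of 6 other genes with a Gata-type zinc finger, 0 were called, 1 (*Gata3*) had the neonatal pattern, found at 7.02% of all genes, and the medians were 2.83, 3.92, 2.22 and 2.10%. *Zglp1*, which acts in germ cells, had a mean of 5.78% and was highest in the adult lists (9.27 and 12.6%, against 2.52 to 5.51% in the others). *Gata1*, the factor of red blood cells, was covered at 8.78, 6.02, 7.56 and 11.6% in the E14.5 and neonatal lists. In the adult and TAC lists it was covered at 1.61, 2.06, 3.09 and 2.06%, with no overlap. *Trps1* had the same order, at 2.24 to 2.75% against 0.276 to 1.58%. *Gata2*, *Gata3*, *Gatad1* and *Zglp1* did not have it. This order was found at 8.62% of all genes. The adjusted p in the limma F test was 0.281 for *Gata1* and 0.327 for *Trps1*. Of 16 cardiac genes that Gata factors activate, 0 were called and 3 had the neonatal pattern (7.02% of all genes), with medians of 12.7, 16.3, 10.4 and 8.36%. The most covered were *Tnnt2*, cardiac troponin T, with a mean of 19.9%, and *Adora1*, an adenosine receptor, with 19.7%.

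Markers of CMCs and of other cell types were read from the same lists, since a change in cell mixture would move coverage too. Coverage summed over 9 CMC markers ran from 112 to 140% at E14.5, from 177 to 208% in neonatal lists, from 95.3 to 132% in adult and from 71.8 to 99.7% in TAC lists, with *Actc1* at 0 in neonatal replicate 1 and adult replicate 1. This sum was highest in the neonatal lists, as at *Gata4*, *Gata6* and *Zfpm2*. Read singly, 4 of the 9 markers (*Actn2*, *Ttn*, *Ryr2* and *Pln*) had both neonatal lists above the other 6, against 7.02% of all genes. *Myh6*, *Tnnt2*, *Tnni3*, *Myl2* and *Actc1* did not, and *Actc1* was lower in both neonatal lists than in both E14.5 lists. The 7 endothelial markers summed to 48.0 to 50.2, 37.1 to 66.0, 26.0 to 34.8 and 20.8 to 25.1%, with *Emcn* at 0 in adult replicate 1. The early sums were above the adult and TAC sums. Taken singly, *Kdr* and *Vwf* had this order, found at *Gata6* and at 8.62% of all genes. *Pecam1*, *Cdh5*, *Tek*, *Tie1* and *Emcn* did not have it. The 6 blood markers, *Gata1* among them, summed to 44.7 to 53.5, 48.2 to 69.4, 30.0 to 47.4 and 24.3 to 31.2%, with *Ptprc* at 0 in TAC replicate 1. The 8 fibroblast markers summed to 24.98 to 29.0, 21.9 to 28.2, 21.6 to 22.8 and 16.8 to 19.3%, and *Col3a1* was at 0 in 7 of 8 lists, *Tcf21* in 3 and *Postn* and *Pdgfra* in 1 each. The 4 smooth muscle markers summed to 18.7 to 20.9, 15.02 to 21.2, 26.8 to 33.8 and 9.78 to 19.1%, with *Cnn1* at 0 in TAC replicate 2. The part of the cell mixture in the results above was not tested.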

How the data were processed

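5-hmC was measured by hMeDIP sequencing in 8 samples, 2 biological replicates at each of 4 points; 11 other samples of the series (inputs and sh-control libraries) have no peak list and were not analysed here. According to the submitters' processing notes and the methods, the authors aligned reads to mm10 with BWA 0.7.4-r385, marked duplicates with Picard, removed reads with a mapping quality under 10 and called peaks in each replicate against its input with HOMER in histone mode. The lists give chromosome, start and end; the deposited score is 1 for every peak, so peaks could not be ranked. Tag numbers and read depth are not in the columns used here. By their headers, 4 lists had the precipitated reads scaled to the input (both of TAC, and replicate 2 of the neonatal and adult points) and 4 the input scaled to them, which can change the number of peaks called.

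From the lists, the percent of each window (gene span in curated RefSeq annotation of GRCm38, plus 20 kb on each side) under a peak was computed with Python 3.11.15 and numpy 2.4.6, with code checked against bedtools 2.31.1. Genes with a peak in at least 2 of 8 lists were tested on log2(percent + 1) with limma 3.58.1 (R 4.3.3, trend, moderated F test over the 4 points and 3 contrasts), adjusted over 19820 genes by Benjamini-Hochberg at 0.05. A peak was placed by its centre in the transcript with the most exonic bases, with the promoter as 1 kb on each side of the start. Promoter sequences of 2 of the 5 genes were matched by symbol in RefSeq. The limma p-values set the differences between points against 1 spread between replicates, pooled over the 4 points and moderated over all genes tested.

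The genes and the lists were chosen with earlier results of these data known. Named are the 5 genes, their neighbours, the 3 genes most alike to each by Pearson's r (mean coverage of at least 1%, window not overlapping), and of each pathway list the called genes or, with none called, the 2 most covered. Singled out after the values were seen were *Gata6* exon coverage and the order of early against adult lists. The same holds for values by list of *Gata1*, *Trps1* and *Zglp1*, and for CMC markers read singly.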

Additional observations from a re-analysis of the deposited data

How the results depend on the processing

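Under the alternatives tried, calls appeared only when all 21000 protein-coding genes were tested (136 genes over the 4 points, and 57, 87 and 16 for the transitions from E14.5 to neonatal, to adult and to TAC) and when gene spans were used without flanks (313, 89, 185 and 128). Of these, 82 of the 136 and 86 of the 313 genes had no spread at all between replicates. None of the 5 genes was called under any alternative, the lowest adjusted p of a difference between points being 0.134. The exact permutation test over the 105 divisions of the samples into 4 pairs called 0 genes, with 1677 at an unadjusted p under 0.05. Its lowest adjusted p was 0.517. Its smallest possible p, 0.00952, cannot pass adjustment over 19820 genes unless a large share of them reach it. The 0 calls of this test were therefore nearly fixed by the design and do not check the limma result. With the replicate number as a block, limma again called 0 genes, with 2766 at an unadjusted p under 0.05 over the 4 points. The labels do not say that a number marks a shared origin, and the correlation of replicate differences between points ran from -0.076 to 0.289, over 0.1 in 3 of 6 pairs of points, so the numbers were not taken as pairing the samples. Leaving out 1 replicate at a time gave 0 calls for the 4 points and each transition.

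Of 295 log2 differences of the 5 genes under alternatives, 277 kept their direction, 2 were 0 (*Gata5* from neonatal to adult, with peak centres and without flanks) and 16 were reversed. Reversed were *Gata5* from E14.5 to neonatal after scaling to the mean (-0.28) and with equal numbers of peaks (-0.54), *Gata5* from neonatal to adult with 50 kb on each side (-0.058), *Zfpm1* from neonatal to adult without flanks (-0.062), and, from adult to TAC after scaling, *Gata6* (0.17) and *Zfpm2* (0.050). Without 1 replicate, the differences from E14.5 to neonatal, neonatal to adult and adult to TAC ran from -0.35 to 0.39, -0.58 to 0.65 and -1.15 to 0.083 at *Gata5*. From neonatal to adult that range was -0.28 to 0.29 at *Zfpm1*, and from adult to TAC it was -0.71 to 0.25 at *Gata6*. Measured by peak centres, *Gata4* differed by 0.49 from E14.5 to neonatal and by -0.37 from neonatal to adult, and with equal numbers of peaks by -0.52 from neonatal to adult. Requiring at least 50% of both peaks, overlap between replicates was 24.3, 35.3, 25.2 and 7.69% at the 4 points, and with peaks widened by 500 bp (added after seeing the data) 53.4, 66.1, 55.3 and 54.6%. In regions common to both replicates, 51.9% lay in introns at E14.5 and 54.5% after TAC. The cause of these shifts was not tested. The number of reads is not in the list columns used here, so an uncovered place may be one that too few reads reached.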
